A study of Mus musculus with 41 samples.

Results

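The genes described here are the clustered replication-dependent histone genes of the mouse, taken as every gene named H2ac, H2bc, H3c or H4c with a number, and H1f1 to H1f5. There were 67 such genes among the 41069 genes with a value in both deposited tables. They comprised 5 linker histone H1 genes, 18 H2A, 19 H2B, 12 H3 and 13 H4 genes. In the GRCm39 coordinates deposited with the counts, 53 lay on chromosome 13 (21899881 to 24118896), 10 on chromosome 3 (96127201 to 96177508), 3 on chromosome 11 (58839737 to 58846018) and 1 on chromosome 6 (136780991 to 136781429). For 62 of the 67 the exonic length equalled the interval from gene start to gene end, as in a gene without introns.

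Poly(A)-selected RNA was sequenced from B cells of mouse spleen, sorted as germinal center (GC; GL7+FAS+), Immature (B220+CD93+CD138-), ABC, MarginalZone (CD21+CD23-), Plasma (B220+CD138+) and Follicular (CD21+CD23+) cells. The labels do not give the gate for ABC, a name used for age-associated B cells. The mutant mice, labelled 1Mek2, were floxed for Mek1 on both alleles, had 1 intact allele of Mek2, and carried Vav1-icre, a transgene whose Cre is active in blood cells generally and not only in B cells. The other mice were labelled wt, and all mice were 3 to 5 months old. GC and Follicular had 4 libraries of each genotype and the other subsets 3 of each. The 40 libraries used came from 16 animals, and an Immature library labelled 1Mek2 whose column name reads Mek1ff was left out. A GC library labelled wt (replicate 4) came from the same animal and its column name also reads Mek1ff, so results that rest on it are given without it as well.

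Replication-dependent histone genes encode the core histones H2A, H2B, H3 and H4, which wrap DNA into nucleosomes, and the linker histones H1, which bind the DNA between them. They are transcribed mainly in S phase, when new chromatin is built. Their mRNAs normally end in a conserved stem-loop in place of a poly(A) tail. The stem-loop is bound by SLBP, and the U7 small nuclear RNA, with the proteins LSM10 and LSM11, guides the cut that forms the end. Poly(A) selection captures such mRNAs poorly, so the values below describe what the selection retained and not the total histone mRNA of the cells. Germinal center B cells are among the most rapidly dividing cells of the body, whereas follicular B cells are mostly at rest.

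Levels are given as scaled TPM, the deposited TPM (transcript abundance relative to the total of its library) divided by a TMM factor for each library, which sets levels per exonic length. Differences are log2 fold changes of scaled TPM plus a pseudocount of 1, with the standard error, and understate changes of low genes. They were tested with limma over 17692 genes, and a gene was called at a Benjamini-Hochberg adjusted p under 0.05 over all of these. Of the 67 histone genes 58 passed the filter on low values (at least 1 scaled TPM in at least 3 libraries), and 7 of the other 9 averaged less than 1 scaled TPM in every group. H2bc1 averaged 1.86 in wt ABC, through 1 library, and H2ac12 1.02 in wt GC. Because 58 genes passed partly through the groups in which they were high, counts below refer to these 58 and not to the family.

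The targeted genes did not check the genotype label. Map2k1 (Mek1) differed between libraries labelled 1Mek2 and wt by -0.55 in Immature, 0.27 in GC, 1.81 in ABC, -1.66 in MarginalZone, -0.20 in Plasma and -0.26 in Follicular, with no call. Map2k2 (Mek2) was higher on average over the subsets, by 1.00 ± 0.33 (limma, adjusted p = 0.0458). A deleted exon cannot be seen in values per gene, and directions by genotype below are therefore those of the labels. Exon reads per library ran from 7897848 to 29204625, of which 700 to 5750 fell on the 67 histone genes. Between 5 and 43 of the 67 were at 0 in a library. Of 26 ABC, MarginalZone, Plasma and Follicular libraries, 7 stood apart with 156 to 288 scaled TPM of Slbp, against 1.55 to 91.2 in the other 19. Markers of the named subset were present in all ABC libraries but replicate 3 labelled 1Mek2, where the sum of the age-associated B cell list was 69.0 scaled TPM, against 1952 to 5246 in the other 5.

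The sequences that bear on the results are the 3′ stem-loops, which mark these mRNAs as a class, and the promoters of the members on which the comparisons turn. A perfect stem-loop with 6-base arms and a 4-base loop was found in a GENCODE transcript (GRCm38) of 40 of the 62 members that had one, in 6 forms. The arms are in capitals and the loop in lower case.
Stem-loop of 24 members, among them H2bc14 and H3c2: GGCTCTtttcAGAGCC
Stem-loop of 6 members, among them H4c4 and H4c3: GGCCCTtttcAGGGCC
Stem-loop of 5 members: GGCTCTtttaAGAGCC
Stem-loop of H4c9 and H4c14: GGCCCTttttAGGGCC
Stem-loop of H4c2 and H4c11: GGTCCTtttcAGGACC
Stem-loop of H2ac20: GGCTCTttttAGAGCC
The transcripts of 18 of the 40 ran more than 100 bases past the stem-loop, and 12 had a poly(A) signal after it.

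The promoters shown are those of H1f5 and H2bc14, called in GC, and of H4c4, called in wt ABC. They are from RefSeq (GRCm38.p6), 250 bases before to 50 bases after the gene start, 5′ to 3′ on the gene's strand. Capitals mark 4 motifs, each searched on both strands, which do not overlap in these promoters. They are CCAAT, the box named for its letters TATAAA, the element known from H1 promoters with the letters AAACACA, and the Oct protein octamer ATTTGCAT.
H1f5 promoter, chr13:21780576-21780875, minus strand: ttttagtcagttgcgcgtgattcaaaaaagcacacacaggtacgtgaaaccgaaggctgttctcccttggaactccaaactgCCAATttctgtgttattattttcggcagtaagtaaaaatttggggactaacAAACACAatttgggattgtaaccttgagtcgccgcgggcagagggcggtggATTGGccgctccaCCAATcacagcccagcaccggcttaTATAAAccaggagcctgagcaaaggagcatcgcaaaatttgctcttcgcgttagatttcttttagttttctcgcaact
H2bc14 promoter, chr13:21721794-21722093, plus strand: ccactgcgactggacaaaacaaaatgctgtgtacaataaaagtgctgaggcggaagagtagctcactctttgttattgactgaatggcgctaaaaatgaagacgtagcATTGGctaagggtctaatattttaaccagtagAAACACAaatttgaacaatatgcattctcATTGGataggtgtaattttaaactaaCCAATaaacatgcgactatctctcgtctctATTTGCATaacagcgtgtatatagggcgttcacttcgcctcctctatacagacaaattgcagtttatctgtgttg
H4c4 promoter, chr13:23581318-23581617, plus strand: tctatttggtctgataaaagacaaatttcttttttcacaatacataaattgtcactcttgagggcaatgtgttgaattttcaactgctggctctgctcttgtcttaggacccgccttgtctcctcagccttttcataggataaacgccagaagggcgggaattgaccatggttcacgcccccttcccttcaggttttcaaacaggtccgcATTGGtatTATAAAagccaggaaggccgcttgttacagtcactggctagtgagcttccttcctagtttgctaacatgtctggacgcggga
Of the 67 members 62 matched the RefSeq table and 57 had a promoter there. CCAAT, searched on both strands, was in 49 of the 57 (86.0%), against 37.9% of all 27025 promoters. All 46 promoters of H1, H2A, H2B and H3 genes held it and 3 of 11 H4 promoters did. TATAAA was in 34 of the 57, against 14.2% of all promoters. ATTTGCAT was in 12, all of them H2A or H2B genes (6 of 17 and 6 of 14), against 1.75% of all. AAACACA was in 4 of 5 H1 promoters, against 7.14% of all. A match of letters is not a binding site.

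Levels were very uneven within the family. H4c4, an H4 gene at chr13:23765551-23765952, held 48.7% of the summed level of all members over the 12 group means, with a mean of 336 scaled TPM, and the 10 highest members together held 76.1%. The wt ABC libraries supplied most of this. H4c4 was 54.2% to 87.4% of the summed level in them, against 4.04% to 14% in wt GC, where H1f5 was above it in all 4 libraries, and 3.16% to 11.8% in wt Immature. The next were the H4 genes H4c16 (43.9) and H4c3 (39.7), the H2A gene H2ac8 (19.7) and the linker histones H1f4 (16.5) and H1f2 (15.0). The highest H2B genes were H2bc18 (9.40) and H2bc4 (9.12), and the highest H3 gene was H3c13 (13.2). Of the 65 members with any TPM above 0, the group with the highest mean was an ABC group for 23 members, GC for 18, MarginalZone for 13, Plasma for 7, Follicular for 3 and Immature for 1. The same count over all genes was not made, so this is not a trait of the histone genes. A group mean can rest on a single library, as for H4c16 in wt ABC below. A median of 23 members reached 1 scaled TPM in wt ABC libraries, the lowest of the 12 groups. Members of the same histone type encode nearly the same protein and can share reads. How reads that map to several copies were counted is not stated, so levels of single copies are uncertain.

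**Figure D1:**
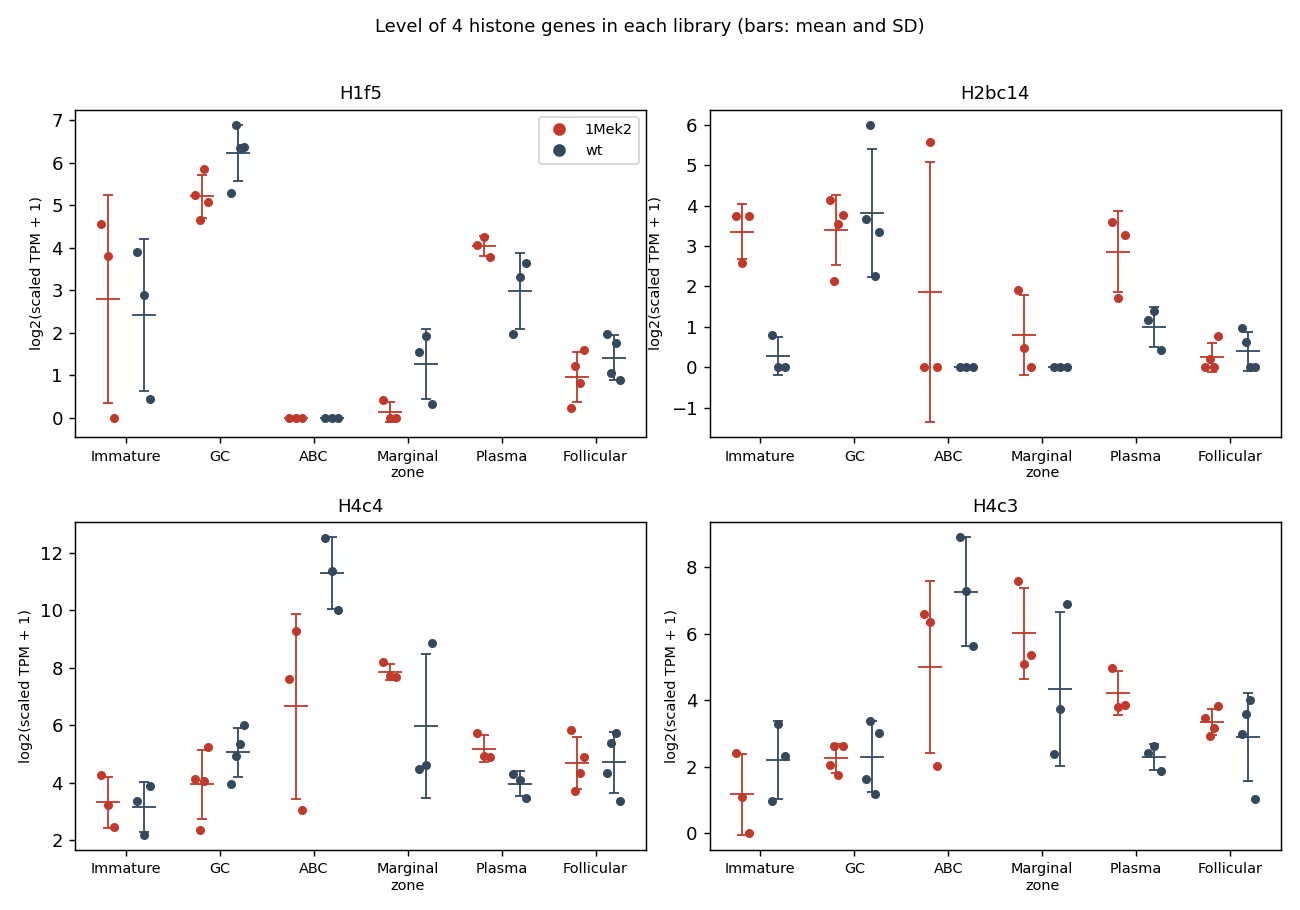
Level of H1f5, H2bc14, H4c4 and H4c3 in each library by subset, as log2 of scaled TPM plus 1 (red, labelled 1Mek2; dark blue, wt; bars, mean and SD of the log2 values). H1f5 and H2bc14 are high in GC, and H1f5 is at 0 in all 6 ABC libraries, whereas the highest values of H4c4 and of H4c3 are in wt ABC libraries.

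H4 genes made up 38.2% to 68.2% of the summed histone level in ABC libraries labelled 1Mek2 and 60.4% to 96.6% in wt ABC, against 39.3% to 45.0% and 29.5% to 47.0% in Follicular. Without H4c4 the share of the remaining sum was 73.0%, 69.6% and 13.7% in wt ABC, against 24.3% to 37.2% in wt Follicular, so wt ABC replicate 3 lay below all of these. In GC the H4 share was 12.5% to 28.5% in libraries labelled 1Mek2 and 11% to 25.1% in wt, and the H1 share was 17% to 35.1% and 26.4% to 34.4%. No test belongs to these shares. A median of 40.5 members reached 1 scaled TPM in GC libraries labelled 1Mek2 and 41.5 in GC wt, against 30.5 and 34 in Follicular. In bulk samples, fewer cells of a type and less RNA per cell cannot be told apart.

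**Figure D2:**
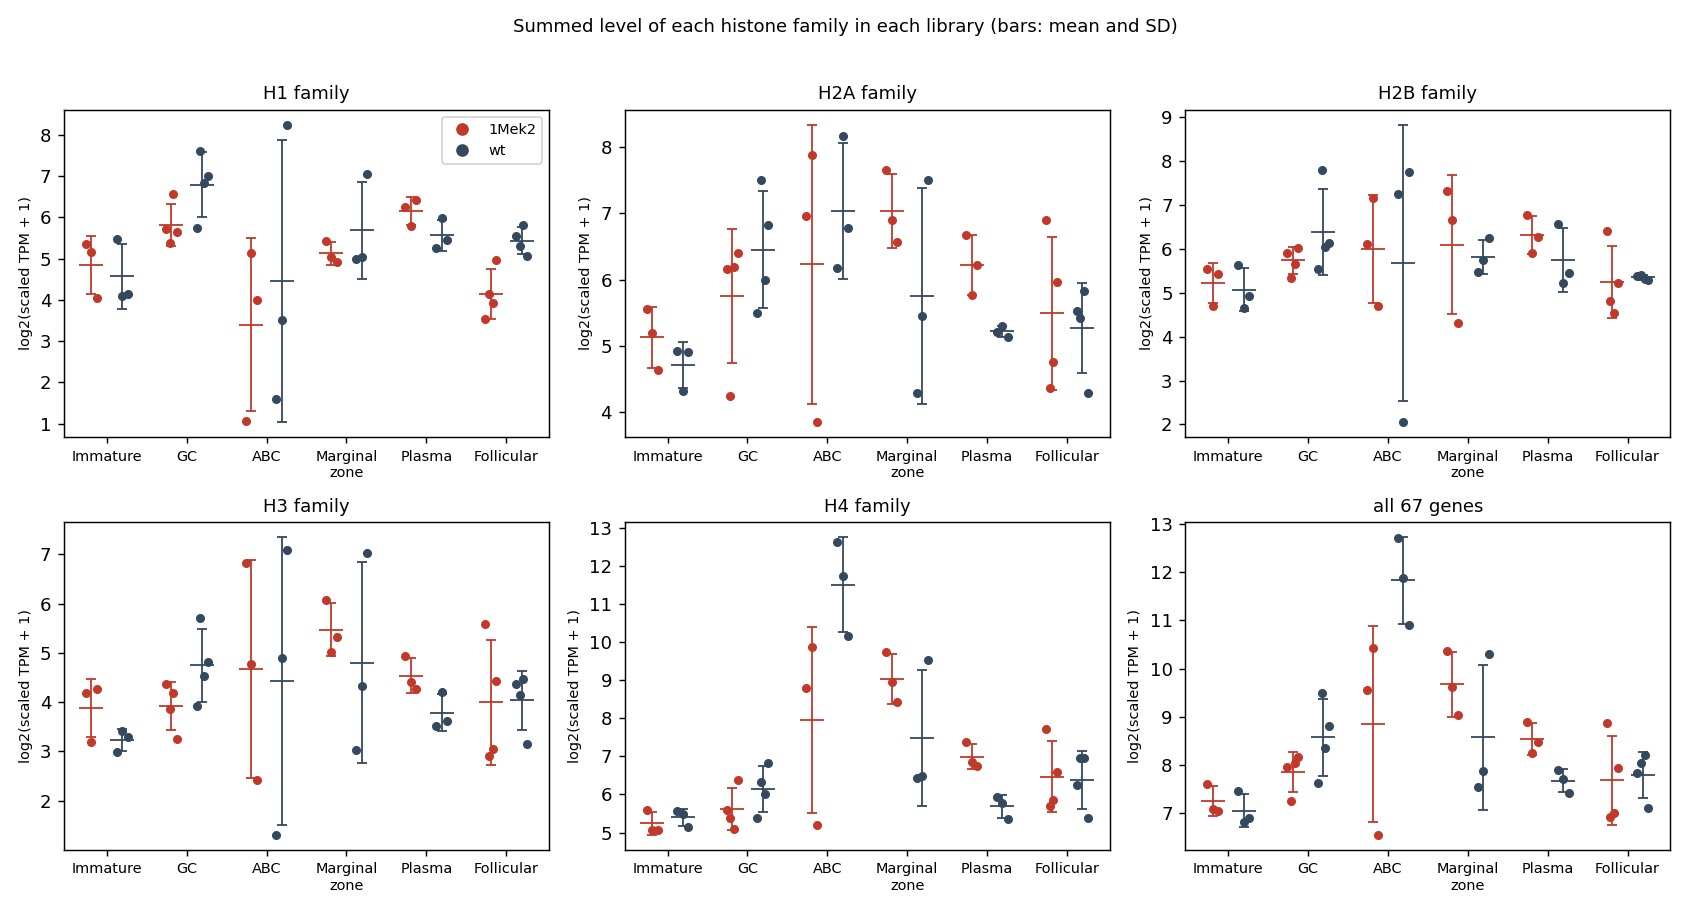
Summed level of the H1, H2A, H2B, H3 and H4 genes and of all 67 genes in each library, as log2 of summed scaled TPM plus 1 (red, labelled 1Mek2; dark blue, wt; bars, mean and SD of the log2 values). The H4 sums of the 3 wt ABC libraries lie above those of all 4 wt Follicular libraries, and the ABC libraries differ widely among themselves in every family.

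The members called by limma in germinal center cells against Follicular cells were H1, H2A, H2B and H3 genes. The wt GC libraries shared no animal with wt Follicular, and those labelled 1Mek2 came mostly from other animals than their Follicular libraries. Subset and animal therefore cannot be fully told apart here. In wt, 8 of the 58 tested members were higher and 0 lower, beside 5.32% of all genes tested higher and 4.08% lower. The median difference of the 58 was 0.19, against -0.05 over all genes. In the libraries labelled 1Mek2, 2 were higher and 0 lower, beside 5.86% and 3.30% of all genes. Other tools called some members lower in these libraries, namely H4c8 (-2.54, adjusted p = 0.035) and H2ac20 (-2.48, 0.021) by DESeq2 and H2bc26 (-3.52, 0.049) and H3c15 (-4.85, 0.029) by edgeR on raw counts. The difference between genotypes was not called for any member in GC, as given below, so a call in wt alone does not show a difference between genotypes. Without the wt replicate 4 that reads Mek1ff, 6 members were called in wt. Without the 7 libraries high in Slbp, 7 were called in wt and 2 in libraries labelled 1Mek2. These libraries were chosen outside GC and Immature, so every GC library stayed, at 365 to 1170 scaled TPM of Slbp. That setting therefore cannot tell GC apart from a library high in Slbp. Without GC replicate 4 labelled 1Mek2, whose S phase sum was 1096 scaled TPM against 4475 to 5258 in the other 3, 6 were higher in libraries labelled 1Mek2.

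H1f5 (chr13:21964002-21964795), a linker histone gene, had the largest difference of the 8. It had 36.9, 57.0, 32.5 and 24.1 scaled TPM in the GC libraries labelled 1Mek2, against 0.169, 1.34, 0.756 and 2.02 in Follicular libraries of that label. In wt it had 38.2, 117, 80.3 and 82.0 in GC, against 2.92, 1.08, 2.38 and 0.845 in Follicular. Every GC library lay above every Follicular library. The difference was 4.24 ± 0.66 (limma, adjusted p = 2.9e-05) in libraries labelled 1Mek2 and 4.81 ± 0.66 (adjusted p = 3.0e-06) in wt. H1f5 was at 0 reads in all 6 ABC libraries, where a count of 3 reads would have been 0.243 to 0.603 scaled TPM in those labelled 1Mek2 and 0.732 to 2.79 in wt. Such limits cover counting error only.

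H2bc14 (chr13:21906214-21906696), an H2B gene, had 16.6, 10.6, 12.7 and 3.42 scaled TPM in GC libraries labelled 1Mek2, against 0, 0.157, 0 and 0.699 in Follicular. In wt GC it had 11.7, 63.3, 3.77 and 9.14, against 0.959, 0.531, 0 and 0 in wt Follicular. All GC libraries were again above all Follicular libraries, and wt replicate 2 was the highest. The difference was 3.15 ± 0.78 (limma, adjusted p = 0.0073) in libraries labelled 1Mek2 and 3.42 ± 0.78 (adjusted p = 0.0032) in wt.

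The H2A gene H2ac22 had 4.54, 43.1, 7.67 and 5.68 scaled TPM in wt GC, against 1.95, 0.540, 1.33 and 0.118 in wt Follicular (2.56 ± 0.58, limma, adjusted p = 0.0031). Its GC libraries did not overlap the Follicular ones, and wt replicate 2 was again the highest. The H3 gene H3c2 had 1.29, 11.4, 5.14 and 4.70 in wt GC and was at 0 in all 4 wt Follicular libraries. The other called members were the H2A genes H2ac11 (2.20), H2ac23 (1.93) and H2ac10 (1.37) and the H3 gene H3c8 (1.32). H2ac10, H2ac23 and H3c8 were not called without wt GC replicate 4, and H3c8 had 0 in wt GC replicate 2. H4c4 had 14.7, 29.3, 39.9 and 62.9 in wt GC, against 19.4, 40.8, 52.6 and 9.32 in wt Follicular, and the groups overlapped (0.35 ± 0.91, limma, adjusted p = 0.88).

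**Figure D3:**
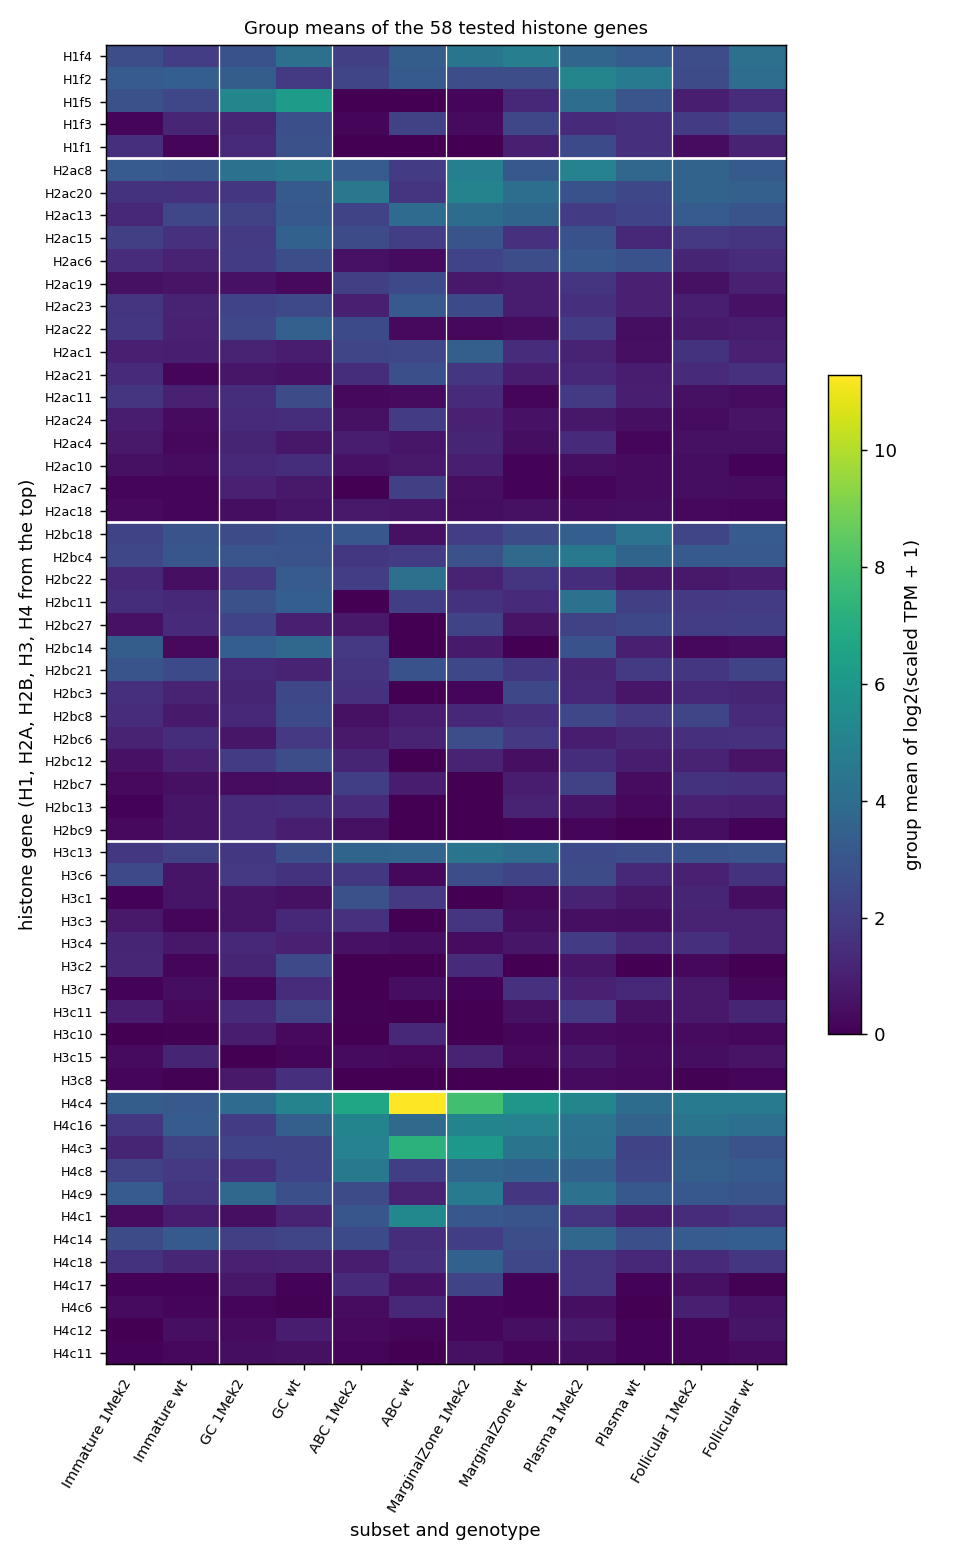
Mean of log2 scaled TPM plus 1 of the 58 tested histone genes (rows, by family and then by level) in the 12 groups (columns; brighter is higher). H4c4 is brightest in wt ABC, whereas H1f5 is bright in both GC groups.

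Genes of DNA replication and division were also higher in GC than in Follicular. Of 24 S phase genes, such as the replication helicase subunits Mcm2 to Mcm6, 20 were higher in GC than Follicular in libraries labelled 1Mek2 and 19 in wt, with 0 lower. All 16 genes of G2 and mitosis were higher in both. Of 20 genes of histone pre-mRNA processing and transcription, 7 were higher in both, including Slbp (4.20 in libraries labelled 1Mek2 and 3.58 in wt), and Ccne1 and Ccne2, the cyclins that start S phase with Cdk2. Of 20 histone chaperone genes 10 were higher in both, among them Asf1b (3.75 and 4.58) and Chaf1a (2.79 and 3.43), which bring new histones to replicated DNA. Of 9 tested replication-independent variants, whose mRNAs are polyadenylated, 3 were higher in libraries labelled 1Mek2 and 4 in wt. These included the linker histone H1f0 (4.64 and 4.69) and H2az1 (2.42 and 2.92). Between genotypes in GC the S phase sum and the histone sum went opposite ways. The median S phase sum was 4817 scaled TPM in libraries labelled 1Mek2 and 3001 in wt. The summed level of all members had a log2 ratio of -0.71, 1Mek2 over wt. The part of the dividing state in the histone values was not tested. Of 7 markers of germinal center B cells 6 were higher in wt GC than in wt Follicular. Slbp was uneven in Follicular, with 275 scaled TPM in wt replicate 4 and 288 in replicate 2 labelled 1Mek2. The other Follicular libraries had 11.1 to 33.7, and GC libraries 365 to 1170. Cdk2 split the same way, with 57.3 and 77.9 in those Follicular libraries, against 11.1 to 17.6 in the others. The part of this split in the differences from GC was not tested.

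In ABC cells of wt mice the members called higher were 3 H4, 3 H2A and 1 H2B gene, and the share of members called higher was near that of all genes. Of the 58 members 7 were higher and 1 lower in ABC than in Follicular, beside 11.7% of all genes higher and 18.3% lower. With the deposited TPM left unscaled, 6 were higher and 5 lower, and the median of all genes moved by -0.39. Without the 7 libraries high in Slbp, 6 were higher and 0 lower, and without wt ABC replicate 3 13 were called. The median difference of the members was -0.27, against -0.32 over all genes.

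H4c4 had 5785, 2662 and 1038 scaled TPM in the wt ABC libraries, against 19.4, 40.8, 52.6 and 9.32 in wt Follicular. The lowest ABC library was far above the highest Follicular one, and the difference was 6.59 ± 0.99 (limma, adjusted p = 5.9e-06). H4c3 (chr13:23882067-23882441) had 477, 154 and 48.6 in wt ABC, against 6.92, 11.2, 15.1 and 1.04 in wt Follicular (4.36 ± 0.96, limma, adjusted p = 0.00075). H4c1 had 117, 36.8 and 12.4, against 2.65, 3.19, 4.77 and 0.246 (3.59 ± 0.79, adjusted p = 0.00078). In all 3 genes wt ABC replicate 1 was the highest and replicate 3 the lowest, and no ABC library overlapped Follicular. Wt ABC had few exon reads for its raw totals over gene intervals. Replicates 1 to 3 had 9061701, 7897848 and 10194627 exon reads, beside raw totals of 22735395, 19157012 and 20382965. Wt Follicular had 15922624 to 29204625, beside 25201826 to 33450184. In wt ABC 43, 42 and 27 members were at 0, against 12 to 19 in wt Follicular. The part of this in the histone values was not tested.

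Other members were patchy between ABC libraries. H4c16 had 0, 557 and 4.86 scaled TPM in wt ABC. The H2B gene H2bc22 had 123, 0 and 45.1 there, against 1.52, 1.15, 0.522 and 0.250 in wt Follicular, and was called (3.32 ± 1.04, limma, adjusted p = 0.015) although the groups overlapped. The H2A genes H2ac23 (2.58), H2ac7 (1.75) and H2ac24 (1.37) were also called higher. H2ac7 rested on few reads, with 96 exon reads over the 40 libraries. The lower member was H2bc18, with 0, 0 and 1.97 in wt ABC, against 8.64, 5.03, 10.2 and 11.8 in wt Follicular (-2.73 ± 0.98, adjusted p = 0.032). That call was lost without wt ABC replicate 1 (adjusted p = 0.103) or 2 (0.098), without wt Follicular replicate 1 (0.055), 3 (0.061) or 4 (0.068), without the 7 libraries high in Slbp (0.082) and with the term for RNAs without a tail (0.377), and edgeR did not make it (0.054 to 0.105).

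In ABC libraries labelled 1Mek2 no member was called against Follicular, beside 0.548% of all genes higher and 0.0339% lower. At an unadjusted p under 0.05 there were 3, DESeq2 called 4, and edgeR called 1 on raw counts and 0 on exon reads. H4c4 had 196, 623 and 7.36 scaled TPM there, against 55.8, 12.2, 19.1 and 29.0 in Follicular (1.96 ± 0.99, limma, adjusted p = 0.59). Replicate 3, the library without the age-associated markers, was below all of its Follicular libraries, and the other two were above. Without it 4 members were higher and 1 lower, among them H2ac22 (2.7, adjusted p = 0.0046), which had 1.69 (adjusted p = 0.31) with it. That library is among the 7 high in Slbp, and without these 7 libraries 2 members were higher.

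Other values moved with the H4 genes in ABC. Of 11 tested RNAs that carry no poly(A) tail, 4 were higher and 1 lower in wt ABC than wt Follicular. Rn7sk, the 7SK RNA that holds back transcription elongation, had 940, 464 and 378 scaled TPM in wt ABC, against 24.3, 38.6, 24.9 and 1.68 in wt Follicular (5.08). The sum of all such RNAs ran from 93.0 to 715 in ABC libraries labelled 1Mek2 and from 550 to 2850 in wt ABC, against 55.5 to 282 and 59.7 to 178 in Follicular. With the log2 sum of these RNAs as a term in the fit, an alternative added after seeing the data, H4c4 was still higher in wt ABC (2.87 ± 0.89, limma, adjusted p = 0.035). H4c3 and H4c1 were not called, and 2 members were higher and 1 lower.

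Some factors that form the stem-loop end differed too. Slbp had 1.55, 2.76 and 14.5 scaled TPM in wt ABC, against 27.9, 23.4, 25.3 and 275 in wt Follicular (-3.17, limma, adjusted p = 0.0083). Lsm10 had 0, 0.899 and 57.5, against 131, 139, 88.2 and 114 (-4.61, adjusted p = 0.00041). The U7 RNA itself, Rnu7, had 0, 0 and 6.25, against 38.9, 67.5, 53.1 and 40.6 (-4.69, adjusted p = 0.00068). Lsm11 went the other way, with 134, 110 and 5.74, against 5.10, 3.32, 3.11 and 2.76 (3.37, adjusted p = 0.00017). Rnu7 is itself among the RNAs without a poly(A) tail, so its values describe what the selection retained. As U7 is a small RNA, 1 read is worth more scaled TPM than in a histone gene, and low values rest on few reads. A read was also worth more in wt ABC. For H4c4 it was worth 1.84, 1.19 and 0.482 scaled TPM there, against 0.139 to 0.230 in wt Follicular. No limit of 3 reads was computed for Rnu7, so its zeros in wt ABC bound its level only loosely. Wt ABC replicate 3 was the library closest to Follicular for Lsm10 and Lsm11, and it also had the lowest H4c4. Of the 20 genes of the list 2 were higher and 3 lower, which is not above the shares of all genes (11.7% higher and 18.3% lower). The part of these factors in the histone values was not tested. Of 24 S phase genes 0 were higher and 6 lower, and of the 16 genes of G2 and mitosis none was called.

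Markers of other cells were also high in these libraries. The sum of 7 plasmacytoid dendritic cell markers ran from 578 to 15809 scaled TPM in ABC libraries labelled 1Mek2 and from 5238 to 13107 in wt ABC, against 639 to 1012 and 393 to 673 in Follicular. Of these markers 6 were higher in wt ABC than wt Follicular, and Siglech, which defines these cells, had 1501 to 4158 in wt ABC, against 0.178 to 1.12 in wt Follicular. The library with the lowest sum was replicate 3 labelled 1Mek2, which also had the lowest H4c4. Of 5 dendritic cell markers 3 were higher and of 12 T cell markers 4 were higher. The part of these cells in the histone values was not tested.

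**Figure D4:**
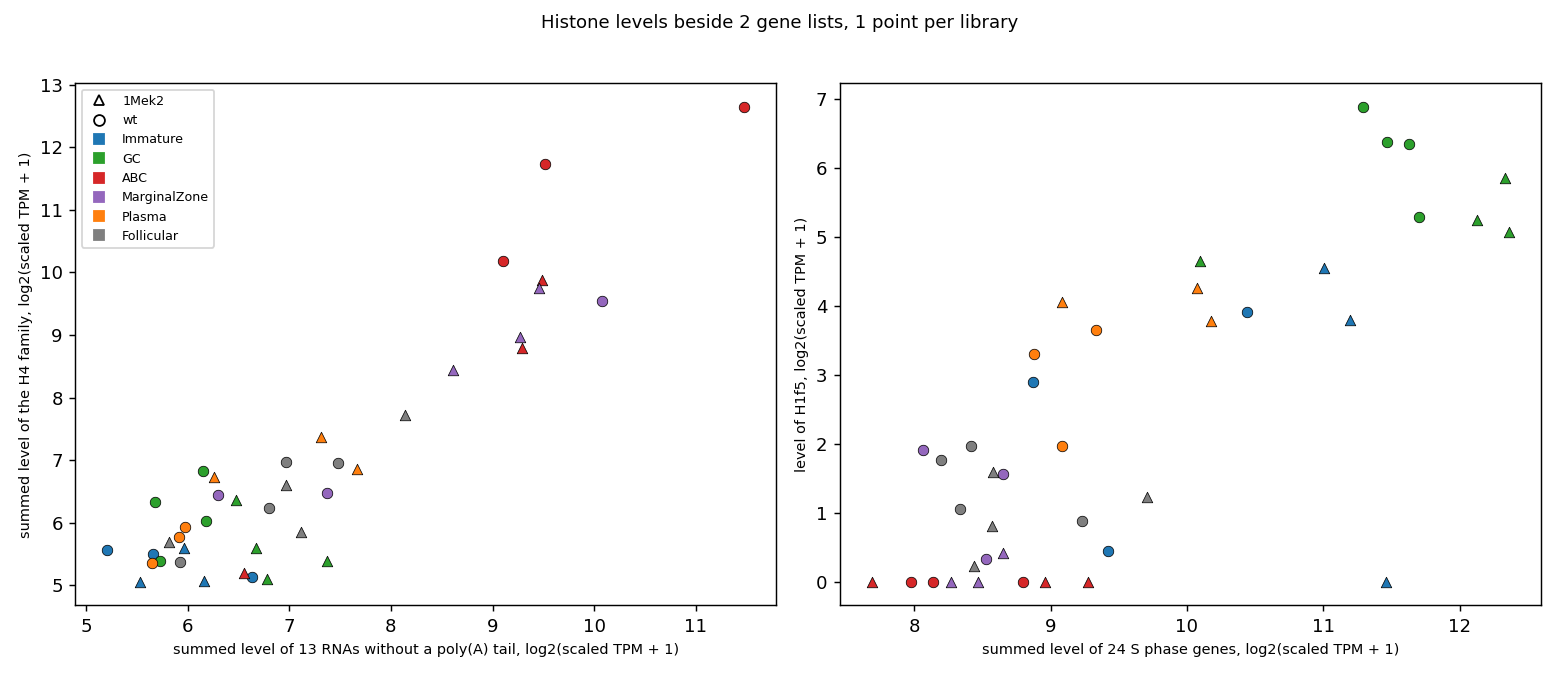
Summed level of the H4 family against that of 13 RNAs without a poly(A) tail (left), and level of H1f5 against the summed level of 24 S phase genes (right), as log2 of scaled TPM plus 1, with 1 point per library (triangles, labelled 1Mek2; circles, wt; colours, subsets). The wt ABC libraries are high on both axes at left and the GC libraries on both axes at right. An Immature library labelled 1Mek2 has high S phase genes and no H1f5 reads.

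By the correlation of the 12 group means of log2 scaled TPM plus 1, the genes most like H4c4 were Nsrp1 (Pearson r = 0.977), Brd2 (0.976) and Cox7c (0.975). This order is fragile, since with the log2 of the group means, a measure added after seeing the data, they were n-TVcac7 (0.979), Brd2 (0.978) and Metap2 (0.976). Nsrp1 encodes a splicing regulatory protein, Brd2 a protein that binds acetylated histones and Cox7c a subunit of cytochrome c oxidase. Brd2 averaged 191 scaled TPM in ABC libraries labelled 1Mek2 and 678 in wt ABC, against 116 and 104 in Follicular. The groups share animals, and no test belongs to these values.

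H1f5 and H2bc14 were also called in Plasma cells, in libraries labelled 1Mek2. There H1f1 was called as well. In libraries labelled 1Mek2, 3 members were higher and 0 lower than in Follicular, beside 11.0% of all genes higher and 2.66% lower. H1f5 had 15.6, 18.1 and 12.8 scaled TPM in Plasma, against 0.169, 1.34, 0.756 and 2.02 in Follicular, without overlap (3.07 ± 0.72, limma, adjusted p = 0.0018). H2bc14 had 11.2, 2.29 and 8.65, against 0, 0.157, 0 and 0.699 (2.62 ± 0.84, adjusted p = 0.030). Its call was lost without Plasma replicate 1 (adjusted p = 0.159) or 3 (0.128) or Follicular replicate 1 (0.069), 2 (0.054) or 3 (0.069). H1f1, another linker histone gene, had 6.08, 4.75 and 3.68, against 0, 0.305, 0 and 1.13 (2.16 ± 0.61, adjusted p = 0.011), and was not called without Plasma replicate 1 (0.058) or by edgeR (0.083 to 0.143).

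Without the 7 libraries high in Slbp 3 were called, and without Plasma replicate 1 labelled 1Mek2 1 was called. With the deposited TPM left unscaled none of these 3 was called. The median of all genes moved by -0.53 in this comparison, and H1f5 and H2bc14 kept their direction. In wt, 0 members were called in Plasma, beside 10.1% of all genes higher and 3.24% lower. There was 1 member at an unadjusted p under 0.05, and DESeq2 and edgeR called 0. That member was H1f5, with 2.92, 8.89 and 11.5 in wt Plasma, against 2.92, 1.08, 2.38 and 0.845 in wt Follicular (1.56 ± 0.72, limma, adjusted p = 0.17). The groups touched at 2.92.

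Of the 16 genes of G2 and mitosis 12 were higher in Plasma libraries labelled 1Mek2 and 7 in wt, and of the 24 S phase genes 3 in both. The Plasma libraries also held RNA of other cells. The sum of 11 neutrophil and granulocyte precursor markers was 5489 to 23643 in those labelled 1Mek2 and 3298 to 9518 in wt, against 1.12 to 101 and 0 to 3.19 in Follicular, and all 11 were higher in libraries labelled 1Mek2. Of 10 erythroid markers 9 and of 12 T cell markers 12 were higher there as well. Granulocyte and erythroid precursors also divide, and their part in the histone values was not tested.

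Immature libraries labelled 1Mek2 had 1 member higher than Follicular and 0 lower, beside 3.57% of all genes higher and 1.31% lower. That member was H2bc14, with 12.3, 4.93 and 12.4 scaled TPM, against 0, 0.157, 0 and 0.699 in Follicular (3.11 ± 0.84, limma, adjusted p = 0.024). The call was lost without Immature replicate 2 (adjusted p = 0.078) or 4 (0.126) or Follicular replicate 1 (0.072) or 3 (0.062). DESeq2 called H1f3 (-4.77, adjusted p = 0.013), H2ac20 (-2.62, 0.021) and H2bc26 (-6.49, 0.0084) lower. On raw counts edgeR called H1f3 (-4.77, 0.039) and H2bc26 (-7.03, 0.0057) lower. H1f5 was called higher by DESeq2 (3.55, 0.0024) and by edgeR on raw counts (3.22, 0.023), with 174, 121 and 0 reads in these Immature libraries. In these libraries 12 of 24 S phase genes and 16 of 16 genes of G2 and mitosis were higher. In wt Immature 0 members were called, beside 0.492% of all genes higher and 0.0791% lower. There was 1 at an unadjusted p under 0.05, the H2A gene H2ac20 (-1.84, adjusted p = 0.40), and DESeq2 and edgeR called 0.

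In MarginalZone no member was called in either genotype, and 2 were called in libraries labelled 1Mek2 without its replicate 2. In libraries labelled 1Mek2 1.51% of all genes were higher and 1.84% lower. There 9 members had an unadjusted p under 0.05, DESeq2 called 3 and edgeR 0. H4c4 had 291, 211 and 206 scaled TPM, against 55.8, 12.2, 19.1 and 29.0 in Follicular (3.17 ± 0.99, limma, adjusted p = 0.068). These MarginalZone libraries lay close together and above all Follicular ones. Rn7sk was again high in them, with 345, 273 and 143, against 94.4, 2.96, 13.7 and 17.8, and Rnu7 had 0, 3.12 and 0, against 121, 45.2, 91.0 and 59.9. In wt 0.350% of all genes were higher and 0.0791% lower, 1 member had an unadjusted p under 0.05 (H3c7, 1.43, adjusted p = 0.78), DESeq2 called 2 and edgeR 0. In wt MarginalZone H4c4 was high in replicate 3 alone, with 23.6, 21.3 and 470, and Rn7sk likewise, with 50.5, 9.92 and 312. Rnu7 was also highest in that library, with 41.0, 51.4 and 131. The limits given for Rnu7 above hold here too. Wt MarginalZone replicate 3 had 10396964 exon reads, beside a raw total of 20473421. Replicates 1 and 2 had 12720811 and 27155960, beside 21016787 and 34925667.

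**Figure D5:**
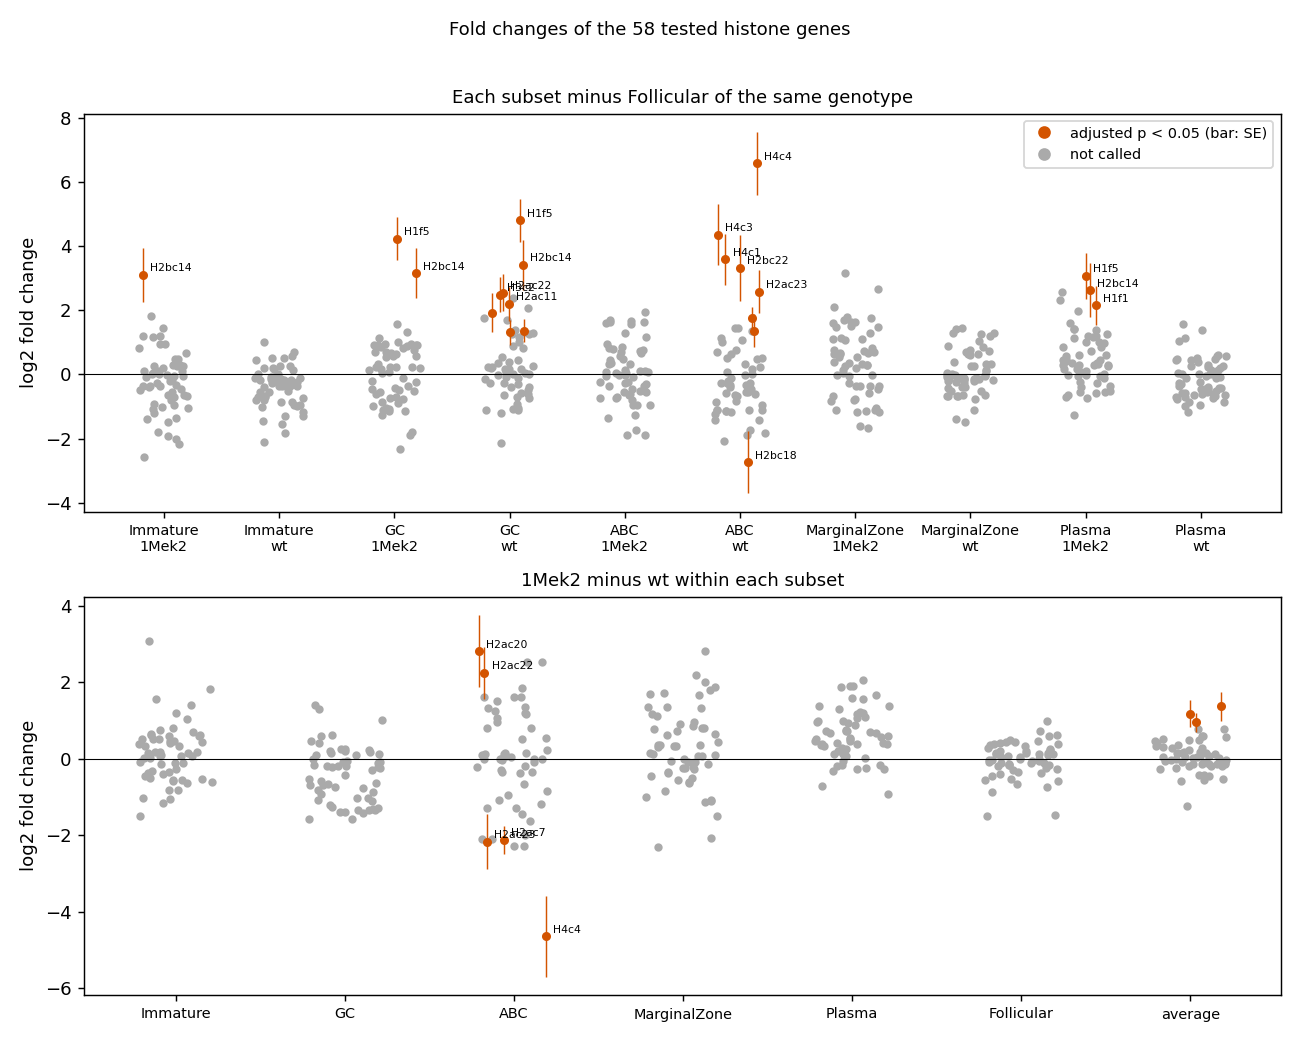
Log2 fold changes of the 58 tested histone genes, against Follicular of the same genotype (upper panel) and between libraries labelled 1Mek2 and wt (lower panel). Points are genes, orange with 1 SE where called and grey where not. Called genes include H1f5 and H2bc14 in GC and H4c4, H4c3 and H4c1 in wt ABC, and the lower panel has calls in ABC and in the average only.

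Between genotypes, ABC was the subset with called members. In libraries labelled 1Mek2 2 members were higher and 3 lower than in wt, beside 13.4% of all genes higher and 8.33% lower. With the deposited TPM left unscaled 1 was higher and 4 were lower. Without wt ABC replicate 3 13 members were called, 6 higher and 7 lower. H4c4 had 196, 623 and 7.36 scaled TPM in ABC libraries labelled 1Mek2, against 5785, 2662 and 1038 in wt, without overlap (-4.64 ± 1.05, limma, adjusted p = 0.0014). The difference was -2.85 (adjusted p = 0.036) without replicate 3 labelled 1Mek2, and -2.82 (adjusted p = 0.0093) with the sum of RNAs without a poly(A) tail as a term. It was called by DESeq2 (adjusted p = 0.0059) and by edgeR on exon reads (0.016) and on raw counts with RLE scaling (0.023). It was not called by edgeR on raw counts with TMM scaling (0.077) or with only these 6 libraries in the fit (0.413). The ABC libraries labelled 1Mek2 had 17461338, 15830023 and 25525294 exon reads, beside raw totals of 22539093, 21763237 and 28461762. Those of wt had 9061701, 7897848 and 10194627, beside 22735395, 19157012 and 20382965. The part of this difference in the histone values was not tested.

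The H2A gene H2ac20 (chr3:96127728-96128209) went the other way, with 63.5, 49.4 and 2.80 scaled TPM in ABC libraries labelled 1Mek2, against 0, 2.98 and 8.04 in wt (2.81 ± 0.94, limma, adjusted p = 0.030). Its groups overlapped through replicate 3 labelled 1Mek2, without which the difference was 4.11 (adjusted p = 0.0018). It was not called without wt replicate 1 (1.95, adjusted p = 0.19) or without replicate 1 (2.07, 0.16) or 2 (2.25, 0.14) labelled 1Mek2. H2ac22 had 13.8, 8.15 and 0.406, against 0, 0 and 0.816 (2.24 ± 0.67, limma, adjusted p = 0.014), and was not called without replicate 1 (1.56, adjusted p = 0.117) or 2 (1.90, 0.068) labelled 1Mek2 or with unscaled TPM (0.053). H2ac7 was at 0 in all 3 ABC libraries labelled 1Mek2, against 4.15, 1.79 and 4.71 in wt, which rest on 2 to 13 reads (-2.12, adjusted p = 5.3e-05). H2ac23 had 0.289, 4.42 and 0.117, against 24.1, 5.2 and 3.51 (-2.16, adjusted p = 0.027), and was not called without replicate 1 (adjusted p = 0.097) or 3 (0.13) labelled 1Mek2 or without wt replicate 1 (0.20), nor by edgeR or DESeq2.

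Some processing factors also differed between the same libraries. Slbp (3.25), Lsm10 (5.86) and the U7 RNA Rnu7 (3.56) were higher in ABC libraries labelled 1Mek2 than in wt, and Lsm11 (-3.83) was lower, like H4c4. Rnu7 had 0, 162 and 71.6 scaled TPM in those labelled 1Mek2, against 0, 0 and 6.25 in wt. These groups overlapped, and the highest Rnu7 was in replicate 2 labelled 1Mek2, which had the highest H4c4 of its group. The limits of Rnu7 values are those given for wt ABC. Of 24 S phase genes 7 were higher and 0 lower. Plasmacytoid dendritic cell markers were lower for 2 of 7.

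In the other subsets no member was called between genotypes. The shares of all genes called higher and lower were 0.475% and 0.147% in Immature, 0.0678% and 0.0961% in GC, 0.345% and 0.271% in MarginalZone, 1.25% and 1.04% in Plasma and 0% and 0.00565% in Follicular. Members at an unadjusted p under 0.05 numbered 4 in Immature, 4 in GC, 9 in MarginalZone, 6 in Plasma and 0 in Follicular. DESeq2 called 2 in MarginalZone and 0 in the others, and edgeR called 0 in all 5.

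The closest in Immature was H2bc14, with 12.3, 4.93 and 12.4 scaled TPM in libraries labelled 1Mek2, against 0.753, 0 and 0 in wt (3.08 ± 0.90, limma, adjusted p = 0.13). The groups did not overlap. In MarginalZone it was the H4 gene H4c17, with 13.8, 0.955 and 3.17, against 0.286, 0 and 0 (2.18 ± 0.64, adjusted p = 0.11). H4c17 was also the closest in Plasma, with 4.23, 2.19 and 1.29, against 0, 0 and 0.206 (1.66 ± 0.64, adjusted p = 0.27). In GC it was H1f1, with 1.58, 3.79, 2.12 and 0.185, against 4.29, 3.36, 4.08 and 18.9 (-1.42 ± 0.56, adjusted p = 0.73). The highest wt value is that of replicate 4, whose column name reads Mek1ff, and the difference was -0.91 (adjusted p = 1) without it. In Follicular it was H1f2, with 0.742, 7.21, 5.96 and 11.6, against 16.5, 12.5, 13.8 and 20.3 (-1.47 ± 0.95, adjusted p = 1), whose groups did not overlap.

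Averaged over the 6 subsets, 3 members were higher in libraries labelled 1Mek2 and 0 lower, beside 7.46% of all genes higher and 2.53% lower. Left unscaled, 1 was higher and 1 lower. H1f3 was called lower on average by DESeq2 (-2.95, adjusted p = 7.4e-05) and by edgeR on raw counts (-2.90, 0.0038) and exon reads (-3.09, 0.0034). So was H3c7 (-2.15, -2.06 and -2.31), and DESeq2 alone also called H2bc11 (-3.39) and H3c1 (-2.71) lower. These tools called members higher as well. H4c9 differed by 1.37 ± 0.38 (limma, adjusted p = 0.017), H2bc14 by 1.17 ± 0.35 (adjusted p = 0.029) and H4c17 by 0.95 ± 0.25 (adjusted p = 0.013). H4c9 had 14.6, 20.3 and 21.0 scaled TPM in Plasma libraries labelled 1Mek2, against 11.2, 6.08 and 6.41 in wt, and 2.64, 67.6 and 56.9 against 2.30, 12 and 0 in MarginalZone. The groups did not overlap in Plasma and overlapped in MarginalZone. H2bc14 was at 0 in all 6 wt ABC and MarginalZone libraries. In ABC labelled 1Mek2 it had 0, 46.3 and 0, so a single library set its level. Leaving out 1 library gave 2 called members without MarginalZone replicate 1 labelled 1Mek2 and 5 without ABC replicate 3 labelled 1Mek2, GC replicate 2 labelled 1Mek2 or wt ABC replicate 1. With the animal as a block H2bc14 was not called (1.12, adjusted p = 0.081).

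A genotype difference that varied between subsets was called for 2 of the 58 members, beside 7.29% of all genes. These were H4c4 (limma F test with 5 degrees of freedom, adjusted p = 0.0329) and H2ac7 (adjusted p = 0.00754). H4c4 differed between genotypes by -4.64 in ABC and -1.10 in GC, by 0.17 in Immature and -0.01 in Follicular, and by 1.88 in MarginalZone and 1.22 in Plasma. The call of H4c4 was lost without ABC replicate 3 labelled 1Mek2 (adjusted p = 0.111), without wt ABC replicate 1 (0.110) or 2 (0.068), without wt MarginalZone replicate 1 (0.056) or 2 (0.055), with no filter (0.067), with the term for RNAs without a tail (0.135) and without the 7 libraries high in Slbp (0.331). Without ABC replicate 2 labelled 1Mek2 4 members were called. The call of H2ac7 was lost with the deposited TPM left unscaled (limma F test, adjusted p = 0.096). edgeR called 0 members on raw counts and on exon reads, but H2ac7 was not among the genes it tested.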

How the data were processed

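RNA was selected by poly(A) tail and read to 100 bases, per the labels' protocols. The submitters' processing notes name featureCounts 2.0.3, STAR 2.7.11a, Trim Galore 0.6.5 and GRCm39, without settings. The authors deposited raw counts per gene interval (totals 7883989 to 34925667 per library) and TPM per exonic length. TPM times length gave whole multiples of 1 constant for 100% of low values (tolerance 0.02), taken as exon reads. Reads carry no molecular identifiers, so depth covers counting error only.

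Deposited TPM were divided by TMM factors (0.412 to 1.74; edgeR 4.0.16). log2(scaled TPM + 1) was fitted with 12 group means in limma 3.58.1 (trend, robust), two-sided, on genes at 1 or more in at least 3 libraries. Alternatives were a pseudocount of 0.1, no filter, unscaled TPM, edgeR on counts and on exon reads, DESeq2 1.42.0, only the groups compared, a replicate block, each library left out and, chosen after seeing the data, a term for RNAs without a tail and the 7 libraries high in Slbp left out. The script was tested on simulated data.

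The members, lists and markers were chosen with earlier results of these data known. Named members were the called ones with the largest changes in each comparison (otherwise the 2 lowest p) and the 2 highest of each family; other called members were named after their values were seen. Genotypes share replicate numbers but not animals. Wt Immature and wt GC libraries share no animal with wt Follicular.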

Additional observations from a re-analysis of the deposited data

Results flagged for a closer look

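H4c4 and H2ac7 differed between genotypes by amounts that varied with the subset, tested as an interaction in limma. The adjusted p was 0.00754 for H2ac7, which rests on few reads, and 0.0329 for H4c4.

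In groups of 4 libraries, 8 of the 103 gene and group pairs looked at had a library far from the other 3, where chance alone gives about 1 in 20. Where the other 3 are at 0, any value above 0 counts as far, as for H3c7 and H4c17 below. The 8 pairs therefore do not show an excess over chance. H2ac8 had 2.22 scaled TPM in GC replicate 4 labelled 1Mek2, against 28.2 to 37.8 in the other 3. H2ac23 had 0.249 in the same library, against 5.24 to 7.58. That library also had the lowest S phase sum of its group. H1f1 had 18.9 in wt GC replicate 4, against 3.36 to 4.29. H4c17 had 0.303 in that library, which is 1 read, and 0 in the others. H3c13 had 12.4 in wt GC replicate 2, against 3.82 to 4.64. H3c7 had 0.488 in GC replicate 2 labelled 1Mek2, with 0 in the others. H2bc4 had 5.17 in wt Follicular replicate 3, against 8.61 to 9.49. H4c17 had 0.211 in wt Follicular replicate 2, also 1 read, with 0 in the others.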

How the results depend on the processing

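Counts of called members, whichever members these were, stayed within 1.5 times of those reported in 178 of 213 alternative settings. The others, by comparison, were as follows. For the genotype difference in ABC (5 called) the count was 3 with no filter, 9 with edgeR on raw counts under TMM and under RLE scaling, 12 with DESeq2 and 0 with only the groups compared. For the average over subsets (3) it was 6 with edgeR under TMM and RLE, 5 on exon reads, 9 with DESeq2 and 6 with the term for RNAs without a tail. For the interaction (2) it was 1 with no filter, 1 unscaled and 0 with edgeR under TMM, RLE and on exon reads. For ABC against Follicular in wt (8) it was 5 with edgeR under TMM, 13 with DESeq2, 13 with only the groups compared and 3 with the term. In libraries labelled 1Mek2 (0) it was 1 with edgeR under TMM, 4 with DESeq2 and 2 without the libraries high in Slbp. For GC labelled 1Mek2 (2) it was 4 with edgeR under TMM and 6 with DESeq2. For Immature labelled 1Mek2 (1) it was 4 with edgeR under TMM and RLE and 5 with DESeq2. For Plasma labelled 1Mek2 (3) it was 0 unscaled, 1 on exon reads and 7 with only the groups compared, and for wt Plasma (0) 1 with only the groups compared. For MarginalZone (0) DESeq2 gave 2 between genotypes, 2 in wt and 3 in libraries labelled 1Mek2, where only the groups compared gave 1. The cause of these changes was not tested. A count can also stay the same while its members change. Between genotypes in ABC, edgeR on exon reads called 5 members, of which 1 was also called by limma. Of the 9 called by edgeR under TMM, 2 were shared. DESeq2 and edgeR, under TMM and on exon reads, called H1f3 and H2bc11 lower and H2bc14 and H2bc3 higher there, which limma did not. H1f5 in GC and H4c4 in wt ABC kept their calls against Follicular in every alternative run.

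Leaving out 1 library gave 4 to 13 called members for the genotype difference in ABC (4 without replicate 2 labelled 1Mek2 and 13 without wt replicate 3), 0 to 1 in MarginalZone, 2 to 5 for the average and 1 to 4 for the interaction. Against Follicular it gave 6 to 9 for GC in wt, 2 to 6 for GC labelled 1Mek2 (6 without GC replicate 4), 6 to 13 for ABC in wt, 0 to 5 for ABC labelled 1Mek2 (5 without ABC replicate 3), 0 to 1 for Immature, 0 to 2 for MarginalZone and 1 to 3 for Plasma labelled 1Mek2. H3c7 in wt MarginalZone (1.43) ran from -0.085 without wt MarginalZone replicate 3 to 2.23 without wt replicate 2. Of 496 values of named members under the other settings 443 kept direction and call, 48 lost the call and 5 gained it.

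The replicate numbers do not pair the genotypes, since they stand for different animals and the correlations of same-numbered libraries ran from -0.60 to 0.25. With the number as a replicate block, 6 members were called between genotypes in ABC and 9 in GC against Follicular in wt. With the animal as the block these were 5 and 8. No count moved by over 1.5 times under either.

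Summed levels (log2 ratio over all members) depended on the scale and on which reads were counted. The CPM rest on raw counts over whole gene intervals. In these, H2bc6 had 18281 counts over the 40 libraries, against 1891 exon reads, and H2bc27, H2bc1 and H2ac1 had 0. Plasma labelled 1Mek2 over wt was 0.87 as scaled TPM, -0.016 unscaled and 0.39 as CPM of raw counts. MarginalZone labelled 1Mek2 over wt was 1.10 as scaled TPM, 0.43 unscaled and -0.015 in CPM, and ABC labelled 1Mek2 over wt -2.98 as scaled TPM and -0.93 in CPM (without H4c4, -1.49 and 0.062). In CPM, wt ABC over Follicular was 1.13, against 4.03 as scaled TPM, and MarginalZone labelled 1Mek2 over Follicular 0.83, against 1.99. Leaving H4c4 out of the sum gave -0.053 and 0.36 for Plasma, 1.32 unscaled and -0.14 in CPM for wt ABC over Follicular, and -0.57 unscaled for wt Plasma over Follicular. Depth limits the low members: 7 tested members had under 100 exon reads over the 40 libraries.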
